A study of Mus musculus with 2 samples.

Results

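Glycolysis splits glucose into pyruvate, and several of its steps can be carried out by more than 1 gene product. The 10 genes described here encode such isozymes: Hk1 and Hk2 (hexokinases), Pfkp (phosphofructokinase), Aldoa and Aldoc (aldolases), Eno1 and Eno2 (enolases), Pkm (pyruvate kinase), and Ldha and Ldhb (lactate dehydrogenase). They were chosen by gene name, with earlier results of these data known. Transcript rows were assigned to mouse gene symbols and summed per gene, which gave 33 rows for the 10 members among 31253 genes in all. Their levels were compared in 2 RNA sequencing libraries of C57BL/6 mice, 1 per group. The first was made from mouse neural retinal progenitor cells (mNRPCs), which were isolated from adult neural retina and grown to passage 24 in defined medium. This medium contained CHIR99021, which blocks glycogen synthase kinase 3, and bFGF, a basic fibroblast growth factor. The second was made from retina tissue, for which the labels give no age. The labels describe a single culture and a single tissue sample, and whether animals were pooled is not stated. Neither library had a replicate, so the spread between samples is unknown and no test between the groups was run.

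Hexokinase traps glucose in the cell, phosphofructokinase commits it to glycolysis, aldolase and enolase act in the middle and late part of the pathway, and pyruvate kinase makes pyruvate. Lactate dehydrogenase interconverts pyruvate and lactate. The retina is known for high lactate production in the presence of oxygen, with photoreceptors as the main site. Isozymes of a step differ in tissue: Eno2 is the enolase of neurons, Aldoc the aldolase of brain, Ldha is the lactate dehydrogenase subunit of highly glycolytic tissues, and Ldhb that of oxidative tissues such as heart.

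All 10 members were detected in both libraries, and 5 of them (Hk1, Hk2, Pfkp, Eno2 and Ldhb) were at least 2-fold lower in mNRPCs. The other 5 (Aldoa, Aldoc, Eno1, Pkm and Ldha) lay within 2-fold, and none was at least 2-fold higher. At the enolase and lactate dehydrogenase steps the minor isozyme of the pair was lower, while the major one was within 2-fold. Eno2 stood at 2.72% of its retina level and Eno1 at 77.1%. Ldhb stood at 10.5% of its retina level and Ldha at 121.7%. Levels are FPKM, in which fragments are divided by transcript length and by library size, and can be set against each other between genes because they are per length. Differences are log2((mNRPC FPKM + 1)/(retina FPKM + 1)), so a negative value is lower in mNRPCs. Of the 13780 genes that reached 1 FPKM in either library, 54.4% differed at least 2-fold. By direction, 30% were lower, against 5 of 10 members (50%), and 24.5% were higher, against 0 of 10. Among genes with at least 10 FPKM, a level that every member reached in 1 library, 24% were lower and 29.1% higher (53.1% in all). The share of all genes that were lower depended on the scaling and was 42.4% at a common sum and 43.9% with rod and cone genes left out and rescaled, with 5 members lower in each. With curated rows alone 27.9% of genes and 4 members were lower. The median difference of the members was -0.80, beside -0.12 for all genes compared, and -0.35 either with curated rows alone or without 1 predicted row of Hk1.

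Depth was estimated from the values at 6.52e6 fragments for mNRPCs and 5.03e6 for retina, and the errors and 95% intervals given here are counting errors from these estimates only. The members summed to 5275 FPKM in mNRPCs and 6484 FPKM in retina. The FPKM of all rows summed to 1.43 times as much in the mNRPC library, and bringing both libraries to a common sum moves the median difference of all genes from -0.12 to -0.68. Shares of an isozyme within its step do not move with such a scaling. Fewer cells of a type and less RNA per cell cannot be told apart in these bulk samples.

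The labels were checked against marker genes. All 8 rod markers (among them Gnat1 and Sag) were lower in mNRPCs, at a summed 7.88 FPKM against 20487 FPKM in retina. All 5 cone markers summed to 0.765 against 806 FPKM, with Pde6h listed at 0 in mNRPCs. All 5 Müller glia markers were lower at 31.6 against 1182 FPKM. Of the mNRPC sum 31.4 FPKM was Glul, glutamine synthetase, which many cells make, the other 4 were at 0.112 FPKM or less, and Kcnj10 was listed at 0. All 5 neuron markers were lower at 19.7 against 1243 FPKM. Of the mNRPC sum 15.4 FPKM was Tubb3, at 24.3% of its retina level, the other 4 were at 2.41 FPKM or less, and Rbfox3 was listed at 0. Vessel and pigment epithelium markers were present in the retina library at a summed 38.4 FPKM and 91.3 FPKM, against 0.132 and 0.0615 FPKM in mNRPCs. Of these retina sums, 29.5 FPKM of the vessel markers was Kdr, and 56.5 and 22.1 FPKM of the pigment epithelium markers were Ttr and Rgr. Pecam1 and Best1 were at 0.54 and 0.215 FPKM in retina. Of 6 retinal progenitor markers, Sox2, Nes, Vim and Ccnd1 were at least 2-fold higher in mNRPCs and Pax6 and Six3 were within 2-fold. All 5 markers of cycling cells were higher, at 323.5 against 2.23 FPKM. Of the 5 fibroblast markers 4 could be compared. Col3a1 was higher in mNRPCs, at 449.8 against 0.31 FPKM, Col1a1, Dcn and Pdgfra were within 2-fold, and Lum was listed at 0 in both libraries. The mature cell and cycling markers differ between the same libraries as the members do, and their part in the results on the members was not tested.

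**Figure D1:**
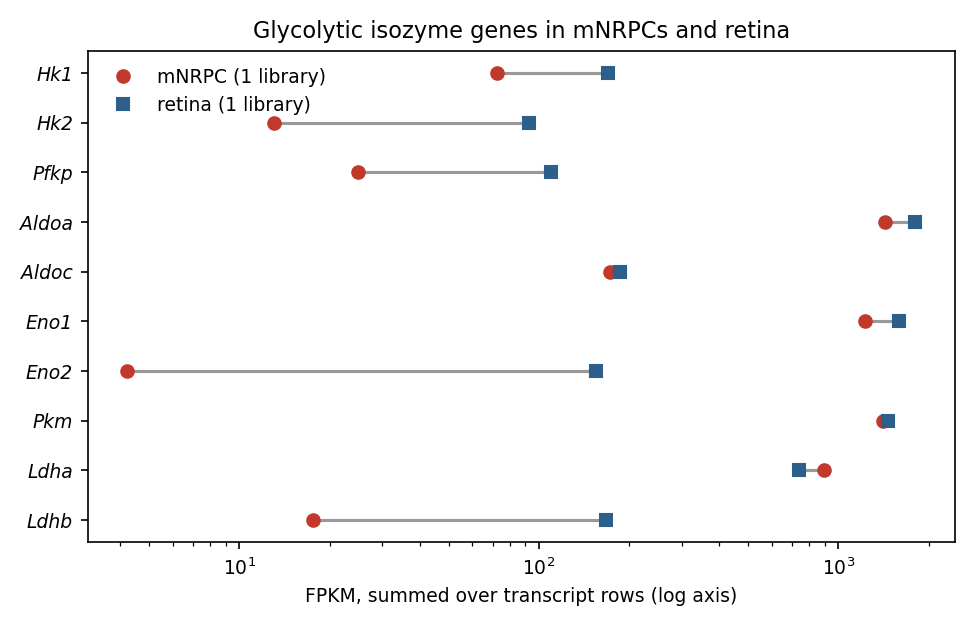
FPKM of the 10 members in the mNRPC library and in the retina library, on a log axis, 1 point per library. Aldoa, Eno1, Pkm and Ldha are the highest in both libraries, at 738 FPKM or more, whereas the points of Eno2 are furthest apart, at 4.21 FPKM in mNRPCs and 154.7 FPKM in retina.

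At the first step the total of hexokinase transcripts was 86.0 FPKM in mNRPCs and 268.6 FPKM in retina, 3.12-fold lower (-1.63). Without 1 predicted row of Hk1 it was 82.1 and 172.9 FPKM (-1.07). Hk2 (chr6:82725025-82774454) encodes the inducible hexokinase of muscle, fat and tumours, which binds mitochondria. It was at 13.1 FPKM in mNRPCs and 93.0 FPKM in retina, a difference of -2.74 ± 0.07 (counting SE) and 7.12-fold lower, with a counting interval of 6.46 to 7.86. Hk1 (chr10:62268855-62379920), the hexokinase of most tissues and the main one of brain, was at 72.5 FPKM and 169.7 FPKM, a difference of -1.22 ± 0.04. Within the step, over all rows, Hk2 made up 15.2% of hexokinase FPKM in mNRPCs (13.9 to 16.5) and 34.6% in retina (33.5 to 35.8). This share depended on the rows used, as given below. Summed over all rows, Hk1 was at 5.56 times the level of Hk2 in mNRPCs and 1.83 times in retina. Of the other hexokinases, Hkdc1 was at 0.393 and 3.29 FPKM and Hk3 was listed at 0 in both libraries.

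The Hk1 difference came from 1 of its 8 transcript rows. That row, a predicted transcript, was at 3.92 FPKM in mNRPCs and 95.7 FPKM in retina, where it held 56.4% of the gene. Without it Hk1 was at 68.6 and 74.0 FPKM, a difference of -0.11, and was no longer 2-fold lower. The order in retina then turned, as Hk2 at 93.0 FPKM stood above Hk1, whereas Hk1 stayed the higher in mNRPCs. Of the other 7 rows 6 lay within 2-fold, among them the main curated row at 29.8 and 30.1 FPKM. The exception was a curated row at 0.203 FPKM in mNRPCs and 3.28 FPKM in retina. Curated rows alone gave 30.0 and 33.4 FPKM, a difference of -0.15, and put Hk2 above Hk1 in retina as well. Hk2 has a single curated row, so its value did not depend on such a division, and the ratio of Hk2 to Hk1 was lower in mNRPCs both with the predicted row (log2 difference of the ratio -1.61, interval -1.77 to -1.44) and without it (-2.72). Rows whose accession version equals that of the reference gave a smaller difference, -0.90. Hk2 was then at 27.8% of the step in mNRPCs and 41.1% in retina. Its share in mNRPCs and retina was 30.4% and 71.3% on curated rows alone. Without the predicted row of Hk1 it was 15.9% and 53.8%.

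**Figure D2:**
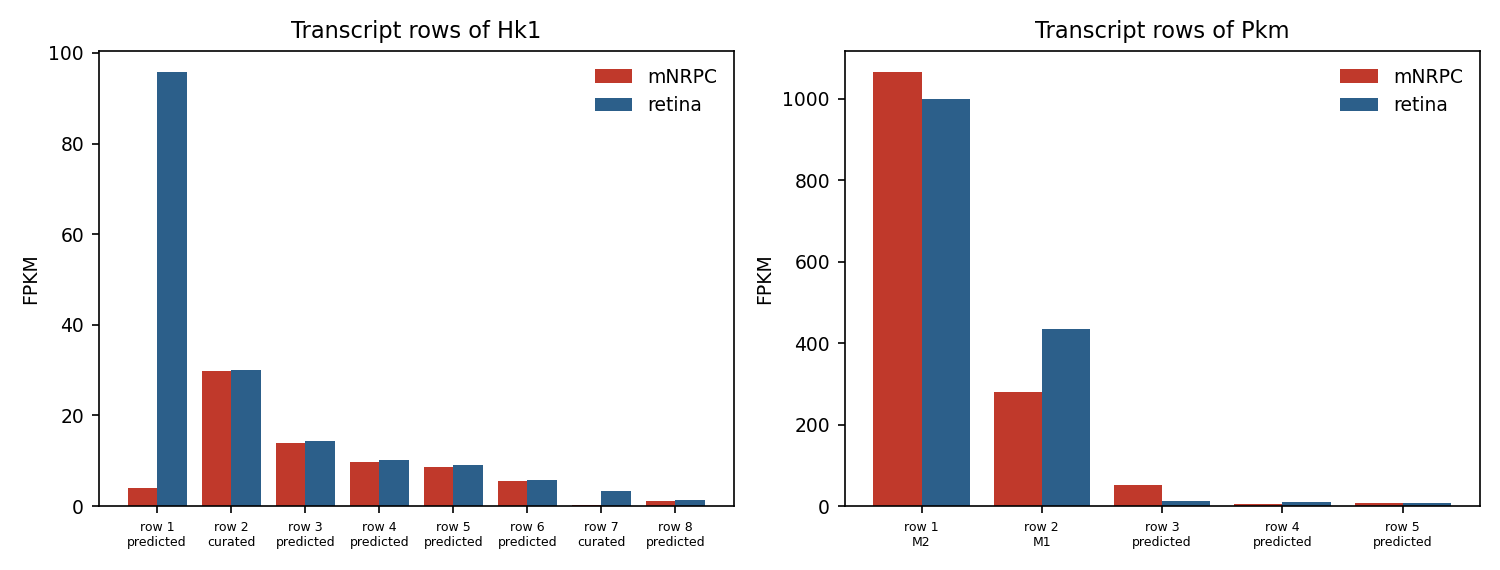
FPKM of each transcript row of Hk1 (left) and of Pkm (right) in the mNRPC and retina libraries, with curated and predicted rows named on the x axis. For Hk1 a single predicted row separates the libraries, at 3.92 and 95.7 FPKM, and for Pkm the M2 row is the highest in both libraries.

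Phosphofructokinase transcripts totalled 101.9 FPKM in mNRPCs and 268.8 FPKM in retina, 2.64-fold lower. Pfkp (chr13:6579874-6649060), the platelet-type enzyme that is also made in brain, was at 24.9 FPKM and 109.4 FPKM. Its difference was -2.09 ± 0.07, or 4.40-fold lower with an interval of 4.02 to 4.82. Pfkl, the liver-type enzyme, was at 48.0 and 112.3 FPKM (-1.21), and Pfkm, the muscle-type enzyme, at 29.0 and 47.1 FPKM (-0.68, and -1.20 at a common sum). Over all rows the order of the isozymes was Pfkl, Pfkm, Pfkp in mNRPCs and Pfkl, Pfkp, Pfkm in retina. The share of Pfkp in the step was 24.4% in mNRPCs (22.7 to 26.2) and 40.7% in retina (39.3 to 42.1). A predicted row carried 79.2 of the retina FPKM of Pfkp and 14.3 of its mNRPC FPKM. On curated rows alone Pfkp was at 10.5 and 30.2 FPKM, a difference of -1.44. Pfkm at 46.3 FPKM then stood above Pfkp in retina too, so that the order was the same in both libraries. The share of Pfkp was then 12.1% in mNRPCs and 16.0% in retina, and the log2 difference of its ratio to Pfkl and Pfkm went from -1.09 to -0.48, under 2-fold.

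Aldolase transcripts were within 2-fold between the libraries, with a total of 1610 FPKM in mNRPCs and 1995 FPKM in retina (-0.31, and -0.82 at a common sum). Aldoa (chr7:126795234-126800994), the aldolase of muscle and of most proliferating cells, was at 1435 and 1806 FPKM, a difference of -0.33 (-0.84 at a common sum). It was the highest member in both libraries. Aldoc (chr11:78323073-78327781) was at 172.8 and 187.1 FPKM, a difference of -0.11 (-0.63 at a common sum). Unlike Eno2, which is also typical of nervous tissue, Aldoc thus lay within 2-fold of its retina level. Its share of the step was 10.7% in mNRPCs (10.4 to 11.1) and 9.38% in retina (9.03 to 9.74), and the log2 difference of its ratio to Aldoa was 0.22, with a counting interval of 0.13 to 0.30.

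The enolase step held the lowest single value among the 10 members. Eno2 (chr6:124760053-124769673), the neuronal enolase that is used as a marker of neurons, was at 4.21 FPKM in mNRPCs and 154.7 FPKM in retina. These levels stand for about 74.4 and 2134 fragments. The difference was -4.90 ± 0.17, or 36.7-fold lower with an interval of 29.2 to 46.3. All 3 of its rows were lower in mNRPCs, at 3.29 against 128.4, 0.877 against 12.4 and 0.041 against 13.8 FPKM. Eno1 (chr4:150236708-150248879), the ubiquitous enolase, was at 1228 and 1593 FPKM, a difference of -0.38 (-0.89 at a common sum). Eno2 made up 0.339% of enolase FPKM in mNRPCs (0.271 to 0.426) and 8.80% in retina (8.44 to 9.17). Eno1 was at 291.7 times the level of Eno2 in mNRPCs and at 10.3 times in retina, so that the total of the step was within 2-fold, at 1240 and 1757 FPKM (-0.50). Eno3, the muscle enolase, was at 8.07 and 9.24 FPKM and so above Eno2 in mNRPCs only, and Eno4 was under 1 FPKM in both libraries.

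Lactate dehydrogenase differed in its isozymes more than in its total. The step summed to 916 FPKM in mNRPCs and 905 FPKM in retina (0.02). Ldhb (chr6:142490249-142507957) was at 17.6 FPKM in mNRPCs and 167.3 FPKM in retina, a difference of -3.18 ± 0.13 and 9.51-fold lower with an interval of 8.01 to 11.3. Ldha (chr7:46842274-46855627) was at 898 and 738 FPKM. Ldha was thus 1.22-fold higher in mNRPCs (1.18 to 1.26), a difference of 0.28 that turned to -0.23 when the libraries were brought to a common sum. The share of Ldhb was 1.92% in mNRPCs (1.64 to 2.25) and 18.5% in retina (17.5 to 19.5). Ldha was at 51.0 times the level of Ldhb in mNRPCs and at 4.41 times in retina, a log2 difference of the Ldhb to Ldha ratio of -3.53 (-3.78 to -3.28) that does not move with scaling. Of the 2 rows of Ldhb, 1 carried the difference, at 13.0 against 161.5 FPKM, and the other was at 4.59 against 5.81 FPKM. Ldhc, the testis subunit, was listed at 0 in both libraries, and Ldhd, which acts on D-lactate and was left out of the total, was at 0.51 and 1.02 FPKM.

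**Figure D3:**
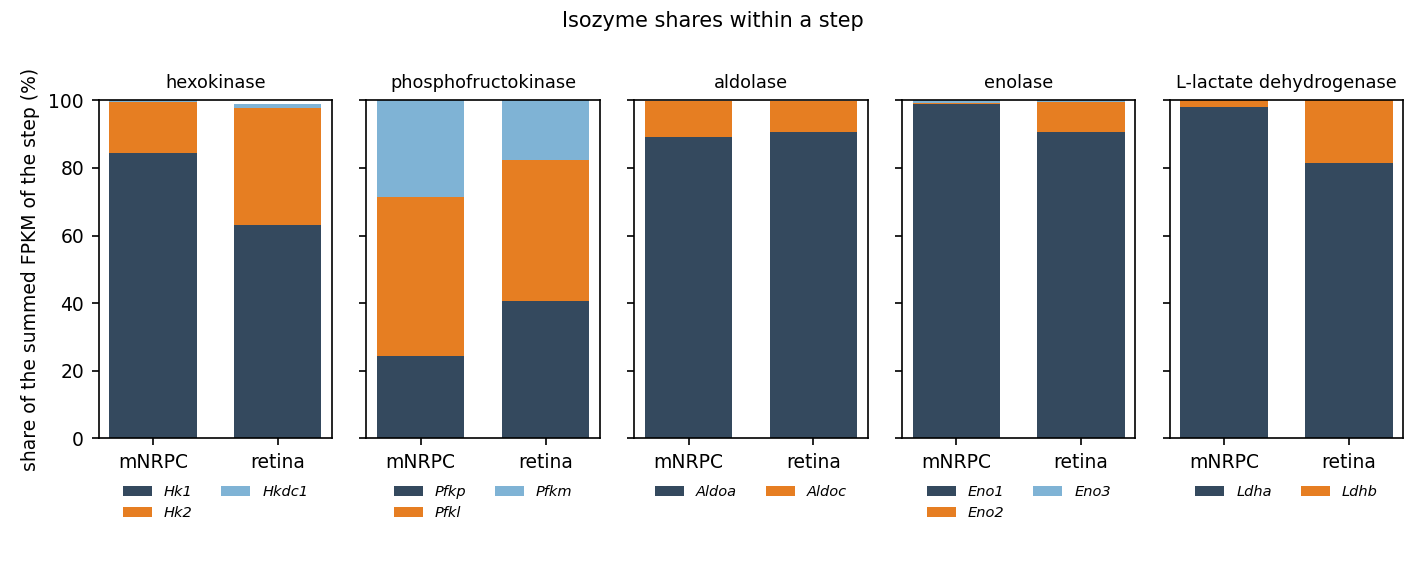
Stacked bars give the share of each isozyme in the summed FPKM of its step, in percent, with 1 panel per step and 1 bar per library, for the isozymes named in the text. Ldhb is at 18.5% of its step in retina and 1.92% in mNRPCs and Eno2 at 8.80% and 0.339%, while Aldoc is at 9.38% and 10.7%.

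Pyruvate kinase was within 2-fold between the libraries. Pkm (chr9:59656576-59679372) was at 1408 FPKM in mNRPCs and 1465 FPKM in retina, a difference of -0.06 (-0.57 at a common sum). Pklr, the pyruvate kinase of liver and red cells, was listed at 0 in both. Pkm makes an M1 or an M2 enzyme by using 1 of 2 neighbouring exons. M1 is the form of adult muscle and brain, and M2 that of embryonic and many proliferating cells. The alternative exons are shown because they carry the difference between the forms. They lie on the + strand of chromosome 9 in GRCm38 (GENCODE M21), 372 bp apart, the M1 exon at chr9:59675029-59675195 and the M2 exon at chr9:59675568-59675734. Each is coding exon sequence, 167 bp long and exon 9 of 11 in its transcript. Capitals mark the 64 bases that differ between the exons, which are 61.7% identical.
M1 exon: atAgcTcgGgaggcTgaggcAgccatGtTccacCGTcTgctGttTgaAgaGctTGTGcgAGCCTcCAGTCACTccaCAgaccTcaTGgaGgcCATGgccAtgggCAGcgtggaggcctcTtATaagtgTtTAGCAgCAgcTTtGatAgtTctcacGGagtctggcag
M2 exon: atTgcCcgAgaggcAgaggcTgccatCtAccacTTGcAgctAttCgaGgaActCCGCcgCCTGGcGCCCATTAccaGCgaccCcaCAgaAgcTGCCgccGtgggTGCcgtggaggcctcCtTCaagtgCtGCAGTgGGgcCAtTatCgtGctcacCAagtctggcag

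The M2 row of Pkm was at 1065 FPKM in mNRPCs and 999.7 FPKM in retina, and the M1 row at 281 and 435 FPKM. M2 was the major form in both libraries, at 3.79 times the level of M1 in mNRPCs and 2.30 times in retina. Of the sum of both forms, M1 made up 20.9% in mNRPCs (20.3 to 21.5) and 30.3% in retina (29.6 to 31.1). Another 3 predicted rows, at a summed 62.8 and 30.6 FPKM, could not be assigned to a form. Counting all of them as M1 gives 24.4% and 31.8%. The M1 and M2 transcripts also differ in their outer exons (2041 and 2432 bp in all), and how the authors' program divided fragments between them was not tested.

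Proteins that bind around these exons were given beside the shares, without a claim on their part. Of 6 such genes, Ptbp1 and Hnrnpa1 were higher in mNRPCs, Ptbp2 was lower, and Hnrnpa2b1, Srsf3 and Rbm4 were within 2-fold. This is 3 of 6 past 2-fold, beside 54.4% of all genes. Ptbp1 was at 118 FPKM in mNRPCs and 26.7 FPKM in retina (2.11). Its neuronal counterpart Ptbp2 was at 18.4 and 54.5 FPKM (-1.51). Hnrnpa1 was at 391 and 180 FPKM (1.11), which was 0.60 and within 2-fold at a common sum, and Hnrnpa2b1 was at 460 and 428 FPKM (0.10).

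The other steps between the isozymes were all within 2-fold. Gpi1 (phosphoglucose isomerase) was at 536 FPKM in mNRPCs and 317 FPKM in retina (0.76), Tpi1 (triosephosphate isomerase) at 638 and 431 FPKM (0.56), and Pgk1 (phosphoglycerate kinase) at 900 and 509 FPKM (0.82). Gapdh, glyceraldehyde-phosphate dehydrogenase and the highest glycolytic transcript in both libraries, was at 3322 and 2924 FPKM (0.18). Pgam1 (phosphoglycerate mutase) was at 475 and 498 FPKM (-0.07). The germ line and muscle forms Gapdhs, Pgk2 and Pgam2 were listed at 0 in mNRPCs. Of 11 steps counted from hexokinase to lactate dehydrogenase, 2 were at least 2-fold lower in mNRPCs, hexokinase and phosphofructokinase, and the other 9 lay between -0.50 and 0.82. At a common sum the enolase total passed 2-fold (-1.02), and the totals of glyceraldehyde-phosphate dehydrogenase (-0.33) and lactate dehydrogenase (-0.50) changed sign.

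**Figure D4:**
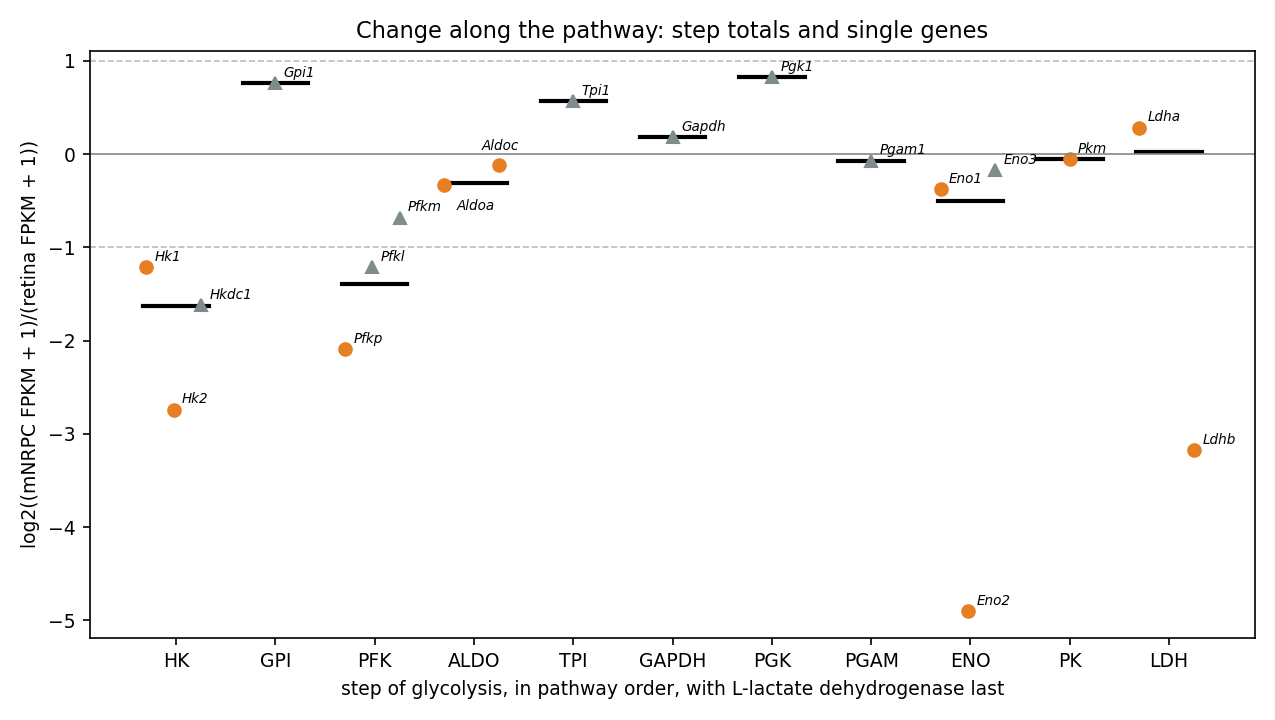
Difference between mNRPC and retina, as log2((mNRPC FPKM + 1)/(retina FPKM + 1)), along the steps of glycolysis. Black bars are step totals, orange circles the members and grey triangles other genes of a step named in the text that reached 1 FPKM in 1 library, dashed lines mark 2-fold, and the hexokinase and phosphofructokinase totals lie below the lower line and no other total does, whereas Eno2 and Ldhb lie far below the totals of their steps.

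Glucose uptake and lactate export were described from 10 transporter genes, of which 8 could be compared. None was at least 2-fold higher in mNRPCs, 2 were lower and 6 within 2-fold (median -0.66), beside 24.5% of all genes higher and 30% lower. At a common sum 5 of the 8 were lower, beside 42.4% of all genes. Slc2a1, the main glucose transporter of the retina, was at 59.5 FPKM in mNRPCs and 88.8 FPKM in retina (-0.57), and the neuronal glucose transporter Slc2a3 at 13.4 and 23.1 FPKM (-0.75). Both were among the genes lower at a common sum, at -1.08 and -1.27. Slc16a1, a monocarboxylate transporter, was at 96.9 and 74.3 FPKM (0.38, and -0.13 at a common sum), and its partner Bsg (basigin) at 680 and 433 FPKM (0.65). Slc16a3, the lactate exporter of highly glycolytic cells, was at 0.905 and 22.2 FPKM (-3.61), and Slc16a8, the exporter of pigment epithelium, was listed at 0 in mNRPCs and at 5.21 FPKM in retina.

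Of 15 genes that regulate the flux through glycolysis or act between pyruvate and the mitochondria, 13 could be compared. None was 2-fold higher, 4 were lower and 9 within 2-fold (median -0.33), beside 24.5% of all genes higher and 30% lower. The share lower was thus near that of all genes. At a common sum 7 of 14 were lower, beside 42.4% of all genes. Pfkfb2, which makes and degrades the activator of phosphofructokinase, was at 3.76 FPKM in mNRPCs and 134.7 FPKM in retina (-4.83). Pfkfb3, another enzyme of this family, was at 2.32 and 10.97 FPKM (-1.85), and Tigar, a phosphatase that lowers this activator, at 3.42 and 13.2 FPKM (-1.68). The genes between pyruvate and the mitochondria were mixed. The pyruvate dehydrogenase kinase Pdk2 was at 3.15 and 10.5 FPKM (-1.47), whereas Pdk1 was at 17.4 and 12.1 FPKM (0.49) and Pdk3 at 26.5 and 18.5 FPKM (0.50). The enzyme subunit Pdha1 was at 79.8 and 44.6 FPKM (0.82) and Pdhb at 93.7 and 86.2 FPKM (0.12, and -0.39 at a common sum). The phosphatase Pdp1 was at 7.15 and 14.6 FPKM (-0.94, and -1.46 at a common sum), and the mitochondrial pyruvate carriers Mpc1 and Mpc2 were at 64.6 and 81.3 FPKM (-0.33) and at 42.7 and 61.4 FPKM (-0.52, and -1.03 at a common sum).

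Promoter sequence was set beside the members because several glycolytic genes are known targets of hypoxia-inducible factor and of Myc. The 250 bp before each RefSeq start (GRCm38.p6) were searched on both strands for ACGTG, a form of the hypoxia response core, and for CACGTG, the palindromic E-box that holds ACGTG on both strands. All 10 members had at least 1 window, 18 in all, as a gene can have several starts. ACGTG was present in 5 of the 18 windows, beside 16.6% of 32851 windows of all genes, and CACGTG in 1, beside 6.02%. The 2 Aldoa windows among the 5 overlap and hold the same site, and windows of all genes were likewise counted per start. The 4 genes with ACGTG were Hk2, Aldoa, Pkm and Ldha, that is 1 of the 5 lower members and 3 of the 5 within 2-fold. No share per gene was computed over all genes, so this count has no background. GCGTG, the other form of the core, was not counted. It occurs on a strand in windows of Hk1, Pfkp, Ldhb, Aldoc and Eno1, which lack ACGTG, so the split holds for ACGTG alone. The first of 2 windows of Ldha, which was near its retina level, and the windows of Ldhb and Hk2, which were lower, are printed from 5′ to 3′ on the strand of the gene, with ACGTG of either strand in capitals. They lie at chr7:46845554-46845803 (+), chr6:142507958-142508207 (-) and chr6:82774455-82774704 (-). The printed Ldha window holds 5 matches of ACGTG, as each of its 2 CACGTG sites counts on both strands. The Ldhb window holds no ACGTG, though it holds GCGTG, and the Hk2 window has 2 matches of ACGTG. The second Ldha window, at chr7:46846832-46847081 (+), holds neither motif. A match is a description of the letters only.
Ldha: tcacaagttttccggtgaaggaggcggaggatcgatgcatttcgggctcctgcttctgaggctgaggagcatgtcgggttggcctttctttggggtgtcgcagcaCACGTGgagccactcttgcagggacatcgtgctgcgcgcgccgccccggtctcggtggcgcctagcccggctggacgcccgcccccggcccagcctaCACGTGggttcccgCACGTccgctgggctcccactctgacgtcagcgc
Ldhb: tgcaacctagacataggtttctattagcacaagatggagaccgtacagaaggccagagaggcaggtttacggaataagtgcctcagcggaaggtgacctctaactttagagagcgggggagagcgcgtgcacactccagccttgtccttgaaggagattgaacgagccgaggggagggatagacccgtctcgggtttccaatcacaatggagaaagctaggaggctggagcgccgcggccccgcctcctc
Hk2: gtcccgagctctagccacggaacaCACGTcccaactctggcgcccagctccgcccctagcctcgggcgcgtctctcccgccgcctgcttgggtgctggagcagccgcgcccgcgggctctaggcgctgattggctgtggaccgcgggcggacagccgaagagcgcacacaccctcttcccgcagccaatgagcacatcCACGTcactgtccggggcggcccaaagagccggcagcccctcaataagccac

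Similarity between the members was measured on coding sequence, since reads that fit several genes are divided by estimation. The pairs of isozymes compared were between 68.8% (Pfkp and Pfkl) and 77.1% (Aldoa and Aldoc) identical, and the longest identical run was 27 bp, in Hk1 and Hk2. Ldha and Ldhb were 73.4% identical and Eno1 and Eno2 75.4%. Some members have closer copies in the genome: Eno1b was 99.4% identical to Eno1, with an identical run of 725 bp, and Aldoart1 was 94.4% and Aldoart2 91.7% identical to Aldoa. These copies were at most 0.570 FPKM in either library, so the values of Eno1 and Aldoa hardly change when copies are added, but how reads were divided between a gene and its copy remains uncertain.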

How the data were processed

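The deposited values are FPKM per RefSeq transcript, made by the authors. The study's methods describe alignment with Bowtie 2 and estimation with eXpress, whereas the submitters' processing notes name TopHat2 2.0.10 and GRCm38.p3 without a role. The annotation release is not given in the sources used here, and the series text and the methods name different sequencers. Each library holds 1 sample, with groups taken from the labels. Accessions were matched without version to RefSeq GRCm38.p6 and then GENCODE M21 (74280 of 106754 rows) and summed per symbol. A gene was compared at 1 FPKM or more in 1 library, and called at a log2 ratio of 1 or more in size after adding 1. Estimates below 1e-06 FPKM were read as 0. Depth came from the value of 1 fragment in single-row genes, and the calculation was tested on simulated data. These had 1 row per gene and counting error only, so the division of fragments between rows was not tested. Rows without a reference length, among them the predicted rows of Hk1 and Pfkp, were given the median length of the gene's matched rows. Intervals cover counting error only. Coordinates are those of RefSeq GRCm38.p6, whose primary chromosomes equal those of GRCm38.p3. Pathway and marker genes were listed by name. Members of the glycolysis, splicing and transcription factor lists were all named, except for genes that count in list and step totals but are not reported here, and those of the transport, regulator and branch lists at 10 FPKM or more in 1 library. Slc16a8, Gpd2 and Pcx were outside that rule and were chosen after their values were seen. The members and lists were chosen with earlier results of these data known. Alternatives were another pseudocount, 4 scalings, another minimum, a stricter threshold, curated rows, version-matched rows, added copies and fragment shares. Python 3.11.15, pandas 2.3.3, NumPy 2.4.6, Biopython 1.88 and matplotlib 3.10.9 were used. No p-value was computed, as there was 1 library per group.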

Additional observations from a re-analysis of the deposited data

How the results depend on the processing

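Hk2, Pfkp, Eno2 and Ldhb were at least 2-fold lower in mNRPCs under the other pseudocount, the 4 scalings and curated rows, the alternatives run on single members. Hk1 was within 2-fold with curated rows (-0.15) and without its predicted row (-0.11), which left 4 members lower in place of 5. No called value changed sign. The members' median difference of -0.80 became -1.31 at a common sum, -1.38 with rod and cone genes left out and rescaled, -0.35 with curated rows only and -0.35 with the predicted row of Hk1 left out, an alternative added after seeing the data. The count of all genes at least 2-fold lower, 4130, became 6349 at a common sum and 6590 without rod and cone genes, and that of other pathway genes lower, 15, became 22 and 23. Higher genes were 44.9% of those past 2-fold, 30.2% at a common sum and 28.7% without rod and cone genes. The log2 difference of Hk2 to Hk1, -1.61, became -2.68 with curated rows, -0.90 with version-matched rows and -2.72 without the predicted row of Hk1. That of Pfkp to Pfkl and Pfkm, -1.09, became -0.48 with curated rows and -0.48 with version-matched rows. The M1 percent of Pkm, 20.0 in mNRPCs, became 20.9 with curated rows and 17.4 with estimated fragments, and in retina 29.7 became 26.2 with estimated fragments. Pkm ranged from -0.64 to 0.01 and Ldha from -0.30 to 0.35. Aldoa ranged from -0.92 to -0.26, Aldoc from -0.70 to -0.05 and Eno1 from -0.96 to -0.31. The causes of these shifts beyond the construction of each alternative were not tested. No paired analysis was possible because mNRPC and retina are single libraries, and none could be left out.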

Other observations

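Several genes of the routes that branch off glycolysis were higher in mNRPCs. Of 16 such genes 13 could be compared, with 7 at least 2-fold higher, 1 lower and 5 within 2-fold (median 1.46), beside 24.5% of all genes higher and 30% lower. The serine pathway, which starts from an intermediate of lower glycolysis, was higher at all 3 of its enzymes. Phgdh, its first enzyme, was at 369 FPKM in mNRPCs and 5.54 FPKM in retina (5.82), Psat1 at 189 and 16.2 FPKM (3.46), and Psph at 45.6 and 13.6 FPKM (1.67). In the pentose phosphate pathway Tkt (transketolase) was at 456 and 83.8 FPKM (2.43), whereas G6pdx, its entry enzyme, was at 36.7 and 26.4 FPKM (0.46, and -0.04 at a common sum), Pgd at 61.8 and 40.7 FPKM (0.59) and Taldo1 at 115 and 74.7 FPKM (0.62). Gys1, a glycogen synthase, was at 15.5 and 4.41 FPKM (1.61), and Pygb, a glycogen phosphorylase, at 21.9 and 24.4 FPKM (-0.15). Pck2, the mitochondrial carboxykinase that makes phosphoenolpyruvate, was at 17.2 and 2.16 FPKM (2.53). Gpd2, the mitochondrial glycerol phosphate dehydrogenase, was the other gene past 2-fold, at 7.54 and 2.10 FPKM (1.46). Pcx, pyruvate carboxylase, was the 1 lower gene, at 1.61 and 5.04 FPKM (-1.21).

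Of 6 transcription regulators linked to energy metabolism 2 were at least 2-fold higher, 4 lower and none within 2-fold (median -1.55), beside 54.4% of all genes past 2-fold. Hif1a, the hypoxia-inducible factor, was at 17.2 FPKM in mNRPCs and 66.5 FPKM in retina (-1.89), and Epas1, its relative of vessels and other cells, at 0.218 and 24.2 FPKM (-4.37). Their partner Arnt was at 30.6 and 9.88 FPKM (1.54). Myc was at 17.3 and 0.257 FPKM (3.86), and Mycn at 1.25 and 4.22 FPKM (-1.21). Ppargc1a, a coactivator of mitochondrial genes, was listed at 0 in mNRPCs and at 11.1 FPKM in retina. A level of transcript does not give the activity of these factors, and no relation to the members was tested.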
